A study of Mus musculus with 4 samples.

Results

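Among the early descendants of Mesp1-expressing mesoderm, 515 cells carried transcripts of both Mab21l2 and Hand1 with fewer than 5 of 8 sarcomere genes at 2 or more UMIs (unique molecular identifiers, each 1 captured transcript), and these cells are described here. They were chosen by measured counts in the libraries of E8.0 and E8.25. They were 281 of 7577 retained cells at E8.0 (3.71%, exact 95% interval 3.29 to 4.16) and 234 of 2954 at E8.25 (7.92%, 6.97 to 8.95), out of 22625 retained cells in the 4 libraries of the series. A member had 1000 or more detected genes, no more than 10% mitochondrial UMIs, at least 1 UMI of Mab21l2 and of Hand1, no UMI of Tbx4 or Cdh5, and met the sarcomere condition, which reads Tnnt2, Myl4, Myl7, Actc1, Tnni1, Ttn, Myh6 and Myh7. Because those 12 genes chose the cells, their levels below are a description and carry no test. The intervals cover counting error only.

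All embryos were of genotype Mesp1Cre; ROSA26-GFPflox/+ on the Swiss Webster background. Cre recombinase made in the nascent mesoderm of the primitive streak switches on GFP for good in these embryos, so GFP marks every descendant of a Mesp1-expressing cell, whatever its later fate, and no embryo carried a mutation under study. Embryos of 1 stage were pooled, the upper part of the body was dissected, and living GFP-positive cells were sorted before droplet capture with the 10x Genomics 3′ chemistry, version 2. Each stage gave 1 library, with 168407965 UMIs at E8.0 and 110213770 at E8.25, so that stage, pool of embryos and library cannot be told apart. The median member held 21062 UMIs in the first library and 34621.5 in the second, against 21663 and 35467 over all retained cells, and 41 barcodes occurred in both libraries.

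The heart tube forms from 2 fields of lateral mesoderm. The first heart field builds the early tube and the left ventricle, and the second heart field adds cells to both poles of the tube. The juxtacardiac field is a band of mesoderm at the rostral border of the cardiac crescent, between the embryonic and extraembryonic mesoderm. It is marked by Mab21l2 and is known to give rise to cardiomyocytes and to the epicardium, the outer covering of the heart. Hand1 encodes a basic helix-loop-helix factor of lateral and extraembryonic mesoderm, Mab21l2 a protein of the Mab21 family needed for eye and ventral body wall development, Msx2 a homeodomain factor and common target of BMP signals, and Sfrp5 a secreted Wnt antagonist of the venous pole of the heart. In the RefSeq annotation of GRCm38, the assembly also called mm10, Mab21l2 lies at chr3:86546050-86548283, Hand1 at chr11:57828713-57832147, Msx2 at chr13:53466881-53472780 and Sfrp5 at chr19:42197971-42202252.

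The levels of both gate genes varied widely within the gate. Mab21l2 was counted at 1 to 16 UMIs per member at E8.0 with a median of 2, and at 1 to 20 with a median of 3 at E8.25. Hand1 was more abundant, with a median of 15 UMIs (range 1 to 78) at E8.0 and 17.5 (range 1 to 67) at E8.25. Thus most members sat close to the threshold for Mab21l2 and far above it for Hand1. A single Mab21l2 UMI admitted 119 members at E8.0 and 74 at E8.25, while 23 and 21 members had a single UMI of both genes. At the other end, 46 members at E8.0 and 77 at E8.25 had 5 or more Mab21l2 UMIs, and 181 and 161 had 10 or more Hand1 UMIs.

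**Figure D1:**
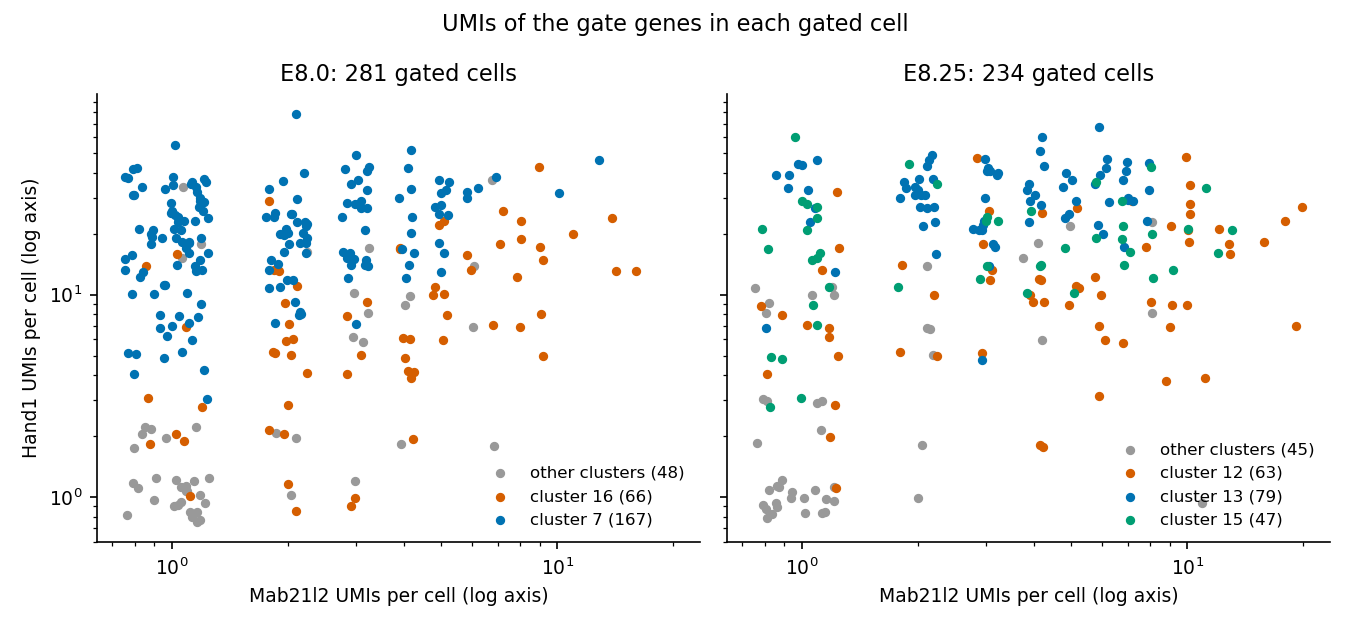
UMIs of Mab21l2 (horizontal, log axis) and Hand1 (vertical, log axis) in each of 281 gated cells at E8.0 and 234 at E8.25, 1 point per cell, coloured by the cell cluster it belongs to. Many points stand at 1 Mab21l2 UMI, and the Hand1 values reach 78 at E8.0 and 67 at E8.25.

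Of the cells with a UMI of both genes, the other conditions removed 82 of 363 at E8.0 and 40 of 274 at E8.25. The sarcomere condition alone removed 54 and 27 of them, the Cdh5 condition alone 3 and 13, and the Tbx4 condition alone 17 and 0. Members just inside the sarcomere threshold, with 4 of the 8 genes at 2 or more UMIs, numbered 54 at E8.0 and 41 at E8.25, and 19 and 15 cells lay just outside it with 5. Some sarcomere transcripts were common among members. Tnni1, a slow skeletal troponin that embryonic heart muscle uses, had a UMI in 227 of 281 members at E8.0 and 210 of 234 at E8.25, and Tnnt2, the cardiac troponin T, in 215 and 188. Ttn, Myh6 and Myh7, which encode the giant spring protein and both heavy chains of cardiac myosin, had a UMI in 15, 4 and 6 members at E8.0 and in 11, 2 and 4 at E8.25.

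Free RNA in droplets adds UMIs to cells that do not express a gene, so the same gate was read in erythroid cells, here those with 5% or more of UMIs from haemoglobin genes, which should express neither gene. Mab21l2 had a UMI in 2 of 66 such cells at E8.0 (3.03%) and 18 of 325 at E8.25 (5.54%), and Hand1 in 24.2% and 28.6%, at median depths of 35351 and 52603 UMIs. The whole gate admitted 1 of these 66 cells and 6 of these 325, and they count among the 515. With each cell thinned to 10000 UMIs, the gate admitted 174 of 6625 cells at E8.0 (2.63%) and 150 of 2929 at E8.25 (5.12%), and 0 of 64 and 0 of 325 haemoglobin-rich cells (exact upper limits 5.601% and 1.129%). Hence the larger share at E8.25 remained at equal depth, but with 1 library per stage it has no replicate check.

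To see what set the members apart, UMIs were summed within each library over the members and over 4 other groups that the same 12 genes define, and the sums were compared with edgeR's quasi-likelihood test with the library as a block. Hand1-only cells had Hand1 but no Mab21l2 (1450 at E8.0 and 536 at E8.25), Mab21l2-only cells had Mab21l2 but no Hand1 (81 and 72), and neither cells lacked both (3473 and 1792). These 3 groups met the other conditions of the gate. Mab21l2-only cells were 1.07% and 2.44% of retained cells, while 3.03% and 5.54% of haemoglobin-rich cells, which were deeper, had a Mab21l2 UMI. Thinned to 10000 UMIs per cell, the shares were 0.845% and 1.09% beside 0% and 0.615%. Free RNA and expression were thus not told apart in Mab21l2-only cells, and no stricter group of them was compared. The cardiomyocyte-gate cells (356 and 73) had 5 or more of the 8 sarcomere genes at 2 or more UMIs, whatever their Mab21l2 and Hand1. They too had no UMI of Tbx4 or Cdh5. Levels are CPM, the UMIs of a gene per 1000000 UMIs of the group, and with 3′ reads they do not scale with transcript length. Differences are log2 fold changes with their standard errors, members over the other group, called at an adjusted p under 0.05 (Benjamini-Hochberg over 12145 genes). With 1 library per stage, p measures the spread between these 2 libraries once their overall difference is removed. A fit without the library term called 458, 863, 711 and 1195 genes in the 4 comparisons, in place of 2950, 2492, 2535 and 4080. All 4 comparisons share the members' own sums, so they are not independent of each other. A summed level also mixes how many cells express a gene with how much each expresses, and these cannot be told apart.

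Hand1-only cells held few Hand1 UMIs. Their median was 2 at E8.0 and 1 at E8.25, at median depths of 22334 and 38948.5 UMIs, and 675 (46.6%) and 409 (76.3%) of them had a single Hand1 UMI, against 10.3% and 9.83% of members. Haemoglobin-rich cells, which should lack Hand1, had a single UMI of it in 22.7% and 24.9%, so a cell with 1 Hand1 UMI cannot be told apart from one that took it up as free RNA. They had 3 or more in 0 of 66 and 3 of 325 cells. Over all retained cells, the share with a Hand1 UMI was 42.3% and 29.2%, beside 24.2% and 28.6% of haemoglobin-rich cells, and at 10000 UMIs per cell it was 33.7% and 16.01%, beside 7.81% and 4.31%. Therefore, in an alternative added once the data had been seen, members were also compared with the 616 and 73 Hand1-only cells that had 3 or more Hand1 UMIs, here called strict Hand1-only cells. On these fewer cells 698 of 11951 genes were called, 4.058% higher and 1.782% lower in members. Values against strict Hand1-only cells are given below for some of the calls that ended or turned. A call with no such value is not to be read as having held.

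Of the 12145 genes tested, 13.78% were higher and 10.51% lower in members than in Hand1-only cells. Against Mab21l2-only cells the shares were 11.39% and 9.131%, against cardiomyocyte-gate cells 9.872% and 11%, and against neither cells 17.58% and 16.01%. The counts for gene groups below are to be read beside these shares, and beside a median log2 fold change over all genes between -0.05 and 0.01 in the 4 comparisons.

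The label of the cells as juxtacardiac was first set beside its 4 markers, of which Mab21l2 and Hand1 chose the cells and cannot check it. Both gate genes were highest in members. The gate fixes their absence from the groups that lack them. Every member had to carry a UMI of both, while cardiomyocyte-gate cells were taken whatever theirs. The difference from those cells thus follows in part from the rule. The gate does not set how far the levels exceed 1 UMI. In the order E8.0 and E8.25, which all pairs of levels below follow, Mab21l2 reached 125.7 and 109 CPM, against 51.8 and 29.4 CPM in Mab21l2-only cells and 34.1 and 64.5 CPM in cardiomyocyte-gate cells. Hand1 reached 766 and 532 CPM, against 238 and 56.8 CPM in Hand1-only cells and 97.9 and 144 CPM in cardiomyocyte-gate cells. Msx2, which the gate did not use, stood at 125 and 144 CPM in members and at 66.8 and 38.3 CPM in Hand1-only cells, a difference of 1.31 ± 0.27 (adjusted p = 0.0074). It was also higher than in Mab21l2-only cells (18.0 and 16.9 CPM), cardiomyocyte-gate cells (29.7 and 59.4 CPM) and neither cells (8.94 and 12.1 CPM), by 2.92, 1.67 and 3.64 with adjusted p = 0.0011, 0.0048 and 2.4e-05. Strict Hand1-only cells, however, had 116 and 142 CPM of Msx2, and members differed from them by 0.07 ± 0.14 (adjusted p = 0.85).

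Sfrp5 did not follow Msx2. It stood at 64.5 and 24.6 CPM in members. That was above the 18.1 and 5.88 CPM of Hand1-only cells (1.88 ± 0.55, adjusted p = 0.032) and above the 8.67 and 4.22 CPM of strict Hand1-only cells (2.78 ± 0.65, adjusted p = 0.030). Against Mab21l2-only cells, with 51.8 and 12.8 CPM, the difference was 0.49 ± 0.68 (adjusted p = 0.66), and against neither cells, with 34.2 and 6.99 CPM, it was 1.22 ± 0.51 (adjusted p = 0.09), so neither comparison passed the threshold. Cardiomyocyte-gate cells had 172 and 254 CPM, and members lay below them by 2.53 ± 0.52 on the log2 scale (adjusted p = 0.0083). In single cells, Sfrp5 had a UMI in 81 of 281 members at E8.0 (28.8%) and 57 of 234 at E8.25 (24.4%), while the deeper haemoglobin-rich cells had one in 15.2% and 9.85%. Msx2 had a UMI in 74.4% and 80.8% of members, against 10.6% and 14.8% of haemoglobin-rich cells. Since neither of the markers outside the gate was higher in members than in every group they were set against, the cells are called here by their rule, as Mab21l2 Hand1 cells.

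**Figure D2:**
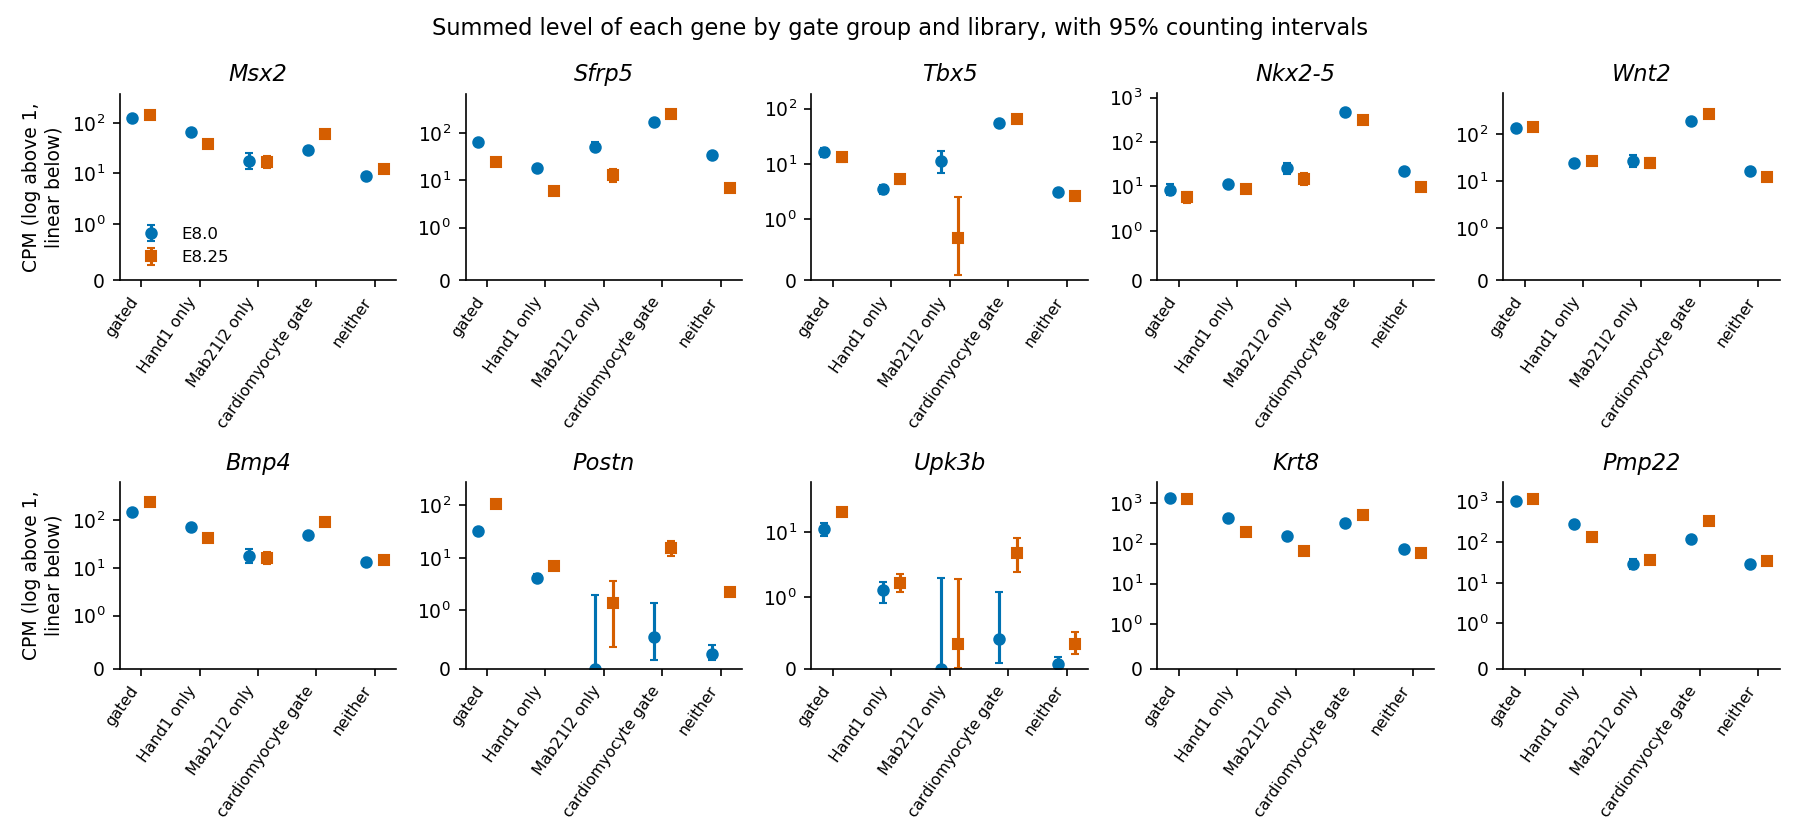
Summed level of each gene in CPM (vertical, logarithmic above 1 and linear below) in the 5 groups of cells, with 1 point per library (E8.0 and E8.25) and exact 95% counting intervals. Msx2 is highest in members in both libraries (125 and 144 CPM), whereas Sfrp5 is highest in cardiomyocyte-gate cells (172 and 254 CPM).

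Several cardiac factors stood in members between their levels in Hand1-only and in cardiomyocyte-gate cells. The gate parts members from cardiomyocyte-gate cells by sarcomere genes, so lower levels than in those cells follow in part from the rule. Of 10 transcription factors and chromatin regulators of the first heart field and early heart, 7 were higher in members than in Hand1-only cells and none lower (median log2 fold change 1.32), and 8 were lower than in cardiomyocyte-gate cells and none higher (median -1.37). Tbx20, a T-box repressor of the forming chambers, stood at 128 and 25.5 CPM in members, at 34 and 3.08 CPM in Hand1-only cells (2.25 ± 0.18, adjusted p = 0.00013) and at 319 and 53.9 CPM in cardiomyocyte-gate cells (-1.25 ± 0.17, adjusted p = 0.0012). Gata5, a zinc-finger factor of cardiac and endodermal precursors, showed the same order, with 57.7 and 36.8 CPM in members between 12.1 and 7.19 CPM in Hand1-only cells and 135 and 77.5 CPM in cardiomyocyte-gate cells. Smarcd3, the cardiac subunit of the BAF chromatin remodelling complex, stood at 79 and 64.2 CPM, between 26.7 and 15.5 CPM and 148 and 129 CPM. Tbx5, the T-box factor that defines the first heart field, stood at 16.2 and 13.1 CPM, above Hand1-only cells by 1.73 ± 0.39 (adjusted p = 0.012) and below cardiomyocyte-gate cells by 2.06 ± 0.37. When strict Hand1-only cells were used, 3 of the 10 were called, all higher in members (Gata5, Tbx20 and Smarcd3, median of the list 0.84), with Tbx20 at 1.02 ± 0.12 (adjusted p = 0.0015) and Tbx5 not called at 0.99 ± 0.56 (adjusted p = 0.37).

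Nkx2-5, the homeodomain factor of committed heart precursors, departed from that order. It stood at 8.43 and 5.7 CPM in members, at 25.4 and 14.9 CPM in Mab21l2-only cells, at 21.9 and 9.91 CPM in neither cells and at 481 and 307 CPM in cardiomyocyte-gate cells. Members were lower than each of these 3 groups, by 1.53 ± 0.28 (adjusted p = 0.0051), 1.15 ± 0.20 (adjusted p = 0.0022) and 5.83 ± 0.19 (adjusted p = 3.7e-08) on the log2 scale. Against Hand1-only cells, with 11.2 and 8.69 CPM, the difference was -0.51 ± 0.22 and did not pass (adjusted p = 0.12). Mef2c, a MADS-box activator of muscle genes, passed in 1 comparison, that with cardiomyocyte-gate cells, in which 642 and 312 CPM stood against 33.6 and 8.72 CPM in members.

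Contractile genes outside the gate divided in a similar way. Of 16 such genes, 10 were higher in members than in Hand1-only cells and 1 lower (median 1.72), while 15 were lower than in cardiomyocyte-gate cells (median -4.32). Because the gate selects on other sarcomere genes, the last count follows in part from the rule. The smooth muscle actin Acta2 stood at 602 and 671 CPM in members, at 128 and 53.9 CPM in Hand1-only cells (2.77 ± 0.38, adjusted p = 0.001) and at 1598 and 1693 CPM in cardiomyocyte-gate cells. Its companion Tagln, a smooth muscle actin-binding protein, stood at 197 and 266 CPM in members and at 320 and 423 CPM in cardiomyocyte-gate cells, a difference that did not pass (-0.72 ± 0.24, adjusted p = 0.061). The small heat-shock protein gene Cryab stood at 125 and 169 CPM against 19.9 and 10.1 CPM in Hand1-only cells (3.26 ± 0.27). By contrast, Myl3 and Ankrd1, a myosin light chain and a nuclear regulator of cardiomyocytes, were at most 3.47 CPM in members and at least 440 CPM in cardiomyocyte-gate cells. Of the 16 genes, 8 were higher in members than in strict Hand1-only cells and none lower (median 1.02), among them Acta2 at 1.25 ± 0.20 (adjusted p = 0.0063) and Cryab at 1.71 ± 0.18 (adjusted p = 0.00074).

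Genes of allantois and extraembryonic mesoderm were higher in members, with a median difference of 1.95 on the log2 scale from Hand1-only cells. All 5 groups lacked Tbx4 by the rule, so cells with a Tbx4 UMI were in none of them. In the E8.0 clusters described below, Phlda2 stood at 5355 CPM in cluster 3 and 5480 CPM in cluster 13. Both had Tbx4 among their leading genes. The differences here are thus from groups without such cells. Of the 11 listed, Tbx4 was a gate gene, Hoxa11 and Hoxa13 were too low to test, and 6 of the 8 tested (Postn, Ahnak, Pmp22, Phlda2, Krt8 and Krt18) were higher in members than in Hand1-only, Mab21l2-only and cardiomyocyte-gate cells. Against neither cells Pitx1 joined them. Krt8 and Krt18, the paired keratins of simple epithelia and extraembryonic mesoderm, stood at 1325 and 1271 CPM and at 1165 and 1031 CPM in members. Hand1-only cells had 431 and 199 CPM of Krt8 (2.08 ± 0.30, adjusted p = 0.0013), and neither cells had 71.9 and 57.9 CPM (4.30 ± 0.33, adjusted p = 2.1e-05). Pmp22, a membrane protein best known from myelin, stood at 1008 and 1185 CPM in members, against 281 and 134 CPM in Hand1-only and 28.6 and 34.2 CPM in neither cells. Postn, which encodes the matrix protein periostin, rose above Hand1-only cells by 3.39 ± 0.43 (adjusted p = 0.00064), from 4.12 and 6.83 CPM to 31.9 and 104 CPM. Strict Hand1-only cells lay nearer to members in this list (median 0.50). Postn, Ahnak and Pmp22 were still higher in members, by 1.61, 1.12 and 0.83 (adjusted p = 0.012, 0.0046 and 0.034), whereas Phlda2 and the keratins were not called. Krt8 stood at 828 and 909 CPM in those cells (0.59 ± 0.22, adjusted p = 0.15).

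Other members of that group behaved differently. Hoxa10, a posterior Hox gene of the allantois, was lower in members than in Hand1-only cells, with 3.31 against 12 CPM at E8.0 and no UMI in any group at E8.25 (adjusted p = 0.024). Pitx1, a homeodomain factor of hindlimb and allantois, stood at 38.7 and 37.2 CPM in members against 49.8 and 4.25 CPM in Hand1-only cells, so that the groups changed order between libraries (1.14 ± 0.73, adjusted p = 0.29). The summed level of the 11 genes was 5754 and 5038 CPM in members, against 2418 and 818 CPM in Hand1-only cells, and Krt8, Krt18, Pmp22 and Phlda2 carried most of it.

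Genes of mesothelium and proepicardium, the tissues that give rise to the epicardium, were low but unevenly spread. Of 6 tested, Wt1, Upk3b and Upk1b were higher in members than in Hand1-only cells, and none was lower (median 1.35). Upk3b, a uroplakin of mesothelial surfaces, stood at 11.2 and 20.9 CPM in members against 1.26 and 1.67 CPM (3.34 ± 0.40, adjusted p = 0.0005), and Wt1, a zinc-finger factor of epicardium and coelomic lining, at 7.11 and 11.97 CPM against 1.62 and 1.09 CPM (2.70 ± 0.46, adjusted p = 0.003). Tbx18 and Tcf21, also factors of the proepicardium, stood at 2.48 and 4.88 CPM and at 13.6 and 13.2 CPM in members and did not differ beyond the spread from Hand1-only cells, with adjusted p = 0.15 and 0.8. Against neither cells, Tbx18 was lower in members, while Wt1, Upk3b and Upk1b were higher. Wt1 and Upk3b were also higher than in Mab21l2-only and cardiomyocyte-gate cells, against which Upk1b was not called. Of these genes Upk3b was also higher than in strict Hand1-only cells (1.49 ± 0.36, adjusted p = 0.035), and Wt1 was not called there (1.35 ± 0.43, adjusted p = 0.097).

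Genes of paraxial and pharyngeal mesoderm were lower in members than in Hand1-only cells, but mostly not lower than in strict Hand1-only cells. All 6 paraxial genes were lower than in Hand1-only cells (median -2.09), among them Meox1 at 14.4 and 27.8 CPM against 86.5 and 96.1 CPM (-2.14 ± 0.30, adjusted p = 0.0012), and so were 5 of 6 anterior second heart field genes (median -1.35). Isl1, the LIM-homeodomain factor of that field, stood at 10.3 and 5.35 CPM against 28.2 and 20.1 CPM in Hand1-only and 58.1 and 76.7 CPM in cardiomyocyte-gate cells. Fgf8, a growth factor of the pharyngeal mesoderm, stood at 7.44 and 6.51 CPM against 33.1 and 24.4 CPM (-2.05 ± 0.15, adjusted p = 9.4e-05). With strict Hand1-only cells, which had 25.8 and 21.1 CPM of Meox1, no paraxial gene was called (median 0.08). Tbx1 and Eya1 of the second heart field list turned higher in members, by 1.47 ± 0.32 and 1.14 ± 0.28 (adjusted p = 0.022 and 0.040), Isl1 was lower by 1.51 ± 0.32 on the log2 scale (adjusted p = 0.019), and Fgf8 was not called (adjusted p = 0.51). Against cells with neither gene, 5 of the 6 paraxial genes were lower in members (median -2.74), and against cardiomyocyte-gate cells none was called.

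Of 5 caudal genes, Cdx1, Cdx2 and Cdx4 were lower in members than in Hand1-only cells (median of the list -2.19), and none was called against Mab21l2-only cells. Cdx4, a regulator of posterior Hox genes, stood at 8.76 and 0.232 CPM against 99.4 and 6.7 CPM (-3.49 ± 0.37, adjusted p = 0.00029), and the difference was -4.49 ± 0.28 from strict Hand1-only cells, against which Evx1 was lower too (median -3.27). The direction was the opposite against cardiomyocyte-gate cells, in which Cdx2, Cdx4 and Evx1 had at most 20 UMIs per library and were lower than in members (median of the list 2.33). Compared with neither cells, Evx1 was higher in members and Cdx1 lower.

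The posterior second heart field list was called in both directions against Hand1-only cells (median of its 8 genes -0.70). Wnt2, a Wnt ligand of the venous pole, was higher in members (135 and 142 CPM) than in Hand1-only cells (24.7 and 26.4 CPM, 2.41 ± 0.16, adjusted p = 8.5e-05) and lower than in cardiomyocyte-gate cells (191 and 270 CPM). Aldh1a2, the enzyme that makes retinoic acid, was lower in members than in Hand1-only cells, with 21 and 12.8 CPM against 81 and 53.2 CPM (-2.03 ± 0.23, adjusted p = 0.00038), and so was Osr1. All 3 calls held with strict Hand1-only cells, with Wnt2 at 1.49 ± 0.23 (adjusted p = 0.0055) and Aldh1a2 at -1.04 ± 0.26 (adjusted p = 0.039). Hoxb1 and Foxf1, factors of posterior and splanchnic mesoderm, stood at 101 and 103 CPM and at 89.8 and 67.1 CPM, and neither passed against Hand1-only cells (adjusted p = 0.081 and 0.2).

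Of the somatic and limb mesoderm list (median 0.01), Irx3, a homeodomain factor, was lower in members (36.2 and 53.2 CPM against 69.7 and 86.3 CPM in Hand1-only cells, -0.82 ± 0.22, adjusted p = 0.023) and was not called against strict Hand1-only cells (-0.49 ± 0.29, adjusted p = 0.39). Msx1, a homeodomain relative of Msx2, stood at 183 and 209.7 CPM against 154 and 70.5 CPM and did not pass (0.81 ± 0.28, adjusted p = 0.064).

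Hox genes were called in both directions. Among those tested (median 0.62), Hoxb2, Hoxb4, Hoxb5 and Hoxb6 were higher in members than in Hand1-only cells, and Hoxa3, Hoxa5, Hoxa7 and Hoxb9 were lower. Hoxb6 stood at 99.4 and 94.4 CPM in members against 63.9 and 13.1 CPM (1.60 ± 0.47, adjusted p = 0.034), whereas Hoxa5 stood at 2.15 and 6.39 CPM against 14.9 and 18.5 CPM (-2.03 ± 0.37, adjusted p = 0.0041). Only the lower calls held with strict Hand1-only cells, where Hoxa5 was at -2.72 ± 0.34 (adjusted p = 0.002) and Hoxb6 at 0.15 ± 0.32 (adjusted p = 0.87).

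Of the 4 BMP ligands, secreted factors that induce Msx genes through receptor-activated Smads, 3 were higher in members than in Hand1-only cells (median 1.52). Bmp4 stood at 149 and 240.1 CPM in members and was higher than in each other group, by 1.74 ± 0.27 against Hand1-only cells (69.9 and 41.6 CPM, adjusted p = 0.0019) and by 1.51 ± 0.29 against cardiomyocyte-gate cells (49.3 and 91.3 CPM, adjusted p = 0.0063). Bmp2, at 55.9 and 81.2 CPM, was higher than in Hand1-only cells (18.3 and 11.9 CPM) and did not pass against cardiomyocyte-gate cells (0.16 ± 0.28, adjusted p = 0.76). Bmp7, not called against Hand1-only cells, was lower in members than in Mab21l2-only, cardiomyocyte-gate and neither cells. Among the receptors, Bmpr2 was higher by 0.53 ± 0.15 and Acvr2b lower by 0.28 ± 0.09 than in Hand1-only cells, and the other 4 of 6 were not called. Of 10 BMP targets, 3 were higher (Msx2, Smad6 and Smad7, of which the last 2 encode inhibitory Smads) (median of the list 0.77) and Id1 was lower, with 115 and 176 CPM against 168 and 213 CPM (-0.44 ± 0.12, adjusted p = 0.03). Of 5 tested antagonists, Nog and Bambi were higher and Fst, Grem1 and Bmper lower (median -1.25), with Fst at 47 and 59.9 CPM against 149 and 174 CPM. Most of these calls ended with strict Hand1-only cells. Bmp2 was still higher (1.34 ± 0.28, adjusted p = 0.019) and Id1 still lower (-0.67 ± 0.12, adjusted p = 0.011), Bmp4 was not called (0.44 ± 0.13, adjusted p = 0.08), and Fst turned higher in members (0.87 ± 0.17, adjusted p = 0.017). The target Tbx3, not called against all Hand1-only cells, was lower in members than in the strict ones (-0.94 ± 0.18, adjusted p = 0.013).

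Several Wnt genes were higher as well. Among 7 tested ligands, Wnt2, Wnt4, Wnt6 and Wnt11 were higher in members than in Hand1-only cells and Wnt5b was lower (median 1.53). Wnt6 stood at 19 and 49.7 CPM against 9.68 and 10.498 CPM (1.52 ± 0.38, adjusted p = 0.018), and Wnt4 at 11.1 and 17.3 CPM against 3.13 and 1.31 CPM. Besides Sfrp5, the secreted antagonists Dkk2 and Dkk3 were higher, and Sfrp2 and Frzb were lower (median of the 7 tested 0.78). Of 6 target genes only Nkd1, a feedback inhibitor of the pathway, was called (99.1 and 146 CPM against 68.7 and 61.9 CPM, 0.84 ± 0.21, adjusted p = 0.017), and Axin2, the general readout of canonical signalling, stood at 15.4 and 19.9 CPM against 29.4 and 19.0 CPM (-0.45 ± 0.25, adjusted p = 0.21). The calls that held with strict Hand1-only cells were Wnt2, Wnt5b, Sfrp5 and Dkk2, while Wnt6 was at 0.03 ± 0.24 (adjusted p = 0.98) and Nkd1 at 0.27 ± 0.17 (adjusted p = 0.42). The target Lef1, not called against all Hand1-only cells, was lower than in the strict ones (-0.91 ± 0.15, adjusted p = 0.0071).

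Matrix and cell cycle genes completed the lists. Of 12 matrix genes, 9 were higher in members than in Hand1-only cells and none lower (median 0.63), led in level by Sparc, a collagen-binding protein, at 282 and 414 CPM against 101 and 70.1 CPM (1.98 ± 0.20, adjusted p = 0.00023). The fibrillar collagen genes Col1a1, Col1a2 and Col3a1 were higher than in each of the 4 other groups. Col4a1 and Vcan were lower in members than in Mab21l2-only, cardiomyocyte-gate and neither cells, and Has2 was lower than in cardiomyocyte-gate cells. Higher than in strict Hand1-only cells were 6 of the 12 (Fn1, Col1a2, Hapln1, Lama1, Postn and Sparc), with Sparc at 0.92 ± 0.13 (adjusted p = 0.0032). Of 8 S phase genes 4 were lower than in Hand1-only cells (Mcm2, Mcm5, Mcm6 and Pcna, by 0.32 to 0.41, of which Mcm2 and Pcna were also lower than in strict Hand1-only cells) and 4 higher than in cardiomyocyte-gate cells, and of 9 G2/M genes none was called against Hand1-only cells.

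The genes with the largest differences from Hand1-only cells, among those at 50 CPM or more in the higher group, were Wisp1, Postn, Cryab, Tdo2, Gas6, Smoc2, Acta2, Tagln, Tmem108 and Wnt2. Tdo2, which encodes tryptophan dioxygenase, stood at 101 and 59.6 CPM in members against 10.46 and 7.47 CPM (3.11 ± 0.31, adjusted p = 0.00023). In the other direction they included Cdx4, Cdx2, Meox1, Tcf15, Aldh1a2, Arg1, Hbb-y, Foxc2 and Fst. The 10 higher genes were also higher than in strict Hand1-only cells, with Tdo2 at 1.44 ± 0.34 (adjusted p = 0.030), whereas of the lower ones named Cdx4, Cdx2 and Aldh1a2 were. In neither cells Tdo2 was at 0.409 and 1.03 CPM, and in cardiomyocyte-gate cells at 4.25 and 5.51 CPM. The genes most lowered against cardiomyocyte-gate cells were muscle genes such as Asb2, Myl3 and Ankrd1 and the growth factor gene Tdgf1, and those against Mab21l2-only and neither cells included Tbx1, Foxc2, Tcf15, Meox1, Ebf1, Foxd1 and Fst.

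Blood transcripts moved with these groups. Summed over 8 blood genes, members had 1008 and 7813 CPM, against 1924 and 25887 CPM in Hand1-only cells, 2262 and 21376 CPM in Mab21l2-only cells, 2575 and 22045 CPM in neither cells and 389.7 and 2808 CPM in cardiomyocyte-gate cells. All 8 genes were lower in members than in Hand1-only cells, and 5 were higher than in cardiomyocyte-gate cells, among them Hba-x, Hbb-bh1 and Hba-a1, which turned lower once cells were thinned to 10000 UMIs. Without the haemoglobin-rich cells, a setting added once the data had been seen, 3049 genes were called against Hand1-only cells in place of 2950. Of the 536 Hand1-only cells at E8.25, 83 were haemoglobin-rich. None of the 8 blood genes was called against strict Hand1-only cells (median 1.07), in which Hba-x stood at 79.9 and 2036 CPM. Of 9 endothelial genes, Cdh5 was at 0 by the rule, Tie1 was too low to test, Etv2, Tal1 and Esam were lower than in Hand1-only cells, and Tek, a receptor of angiopoietins, was higher in members than in every other group, with 28.3 and 45.9 CPM against 5.56 and 3.94 CPM in Hand1-only cells (2.88 ± 0.33, adjusted p = 0.00042). Every group lacked Cdh5 by the rule, so Tek was not compared with cells that had a Cdh5 UMI. Tek was also higher than in strict Hand1-only cells (1.76 ± 0.28, adjusted p = 0.0062), and Etv2, Tal1 and Esam were not called there. The endothelial list summed to 87.5 and 115.5 CPM in members against 152 and 142 CPM in Hand1-only cells, and to between 63.3 and 295 CPM in the remaining groups. Epithelial and neural genes were at 3.97 and 2.56 CPM and at 5.13 and 5.93 CPM in sum in members, with Foxa2 and Foxd3 at 0. The part of these cells in the differences above was not tested.

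To ask whether the gate had caught 1 kind of cell or several, each library was clustered on its own by the Leiden algorithm, without the 12 gate genes. The clusters are given by number, in order of size, and by their leading genes. They were built from the same cells, so the levels below are a description with counting intervals. At E8.0 the members fell mainly into a pair of 17 clusters. Cluster 7, led by Krt18, Tdo2, Pmp22, Krt8 and Smoc2, held 167 members (59.4%), and cluster 16, led by Mab21l2, Wnt2, Ccdc80, Nkd1 and Msx2, held 66 (23.5%). They were 36.1% of the 463 cells of cluster 7 and 50% of the 132 cells of cluster 16. A further 14 members lay in cluster 6, led by Sfrp5, Aldh1a2, Nr2f1 and Osr1. At a coarser setting (resolution 0.5 in place of 1), 1 cluster of 10 held 83.6% of members, so the division into a pair depended on the setting. At resolution 2 the top pair held 82.6%.

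At E8.25, also with 17 clusters, the members were spread more evenly. Cluster 13, led by Postn, Pmp22, Hand1, Krt8 and Wisp1, held 79 (33.8%) and consisted of members to 83.2% of its 95 cells. Cluster 12, led by Phlda2, Mab21l2, Msx2, Ccdc80 and Tgfb2, held 63 (26.9%, which was 55.3% of its 114 cells), and cluster 15, led by Tdo2, Tmem158, Foxf1, Hlx and Krt18, held 47 (20.1%, which was 51.1% of its 92 cells). Another 20 members lay in cluster 3, led by Lhx1, Hoxa5 and Cdx1. The cluster led by Actc1 and other muscle genes held 1 member at E8.0 and 0 of its 92 cells at E8.25 (exact upper limit 3.93%), which the sarcomere condition of the gate favours.

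**Figure D3:**
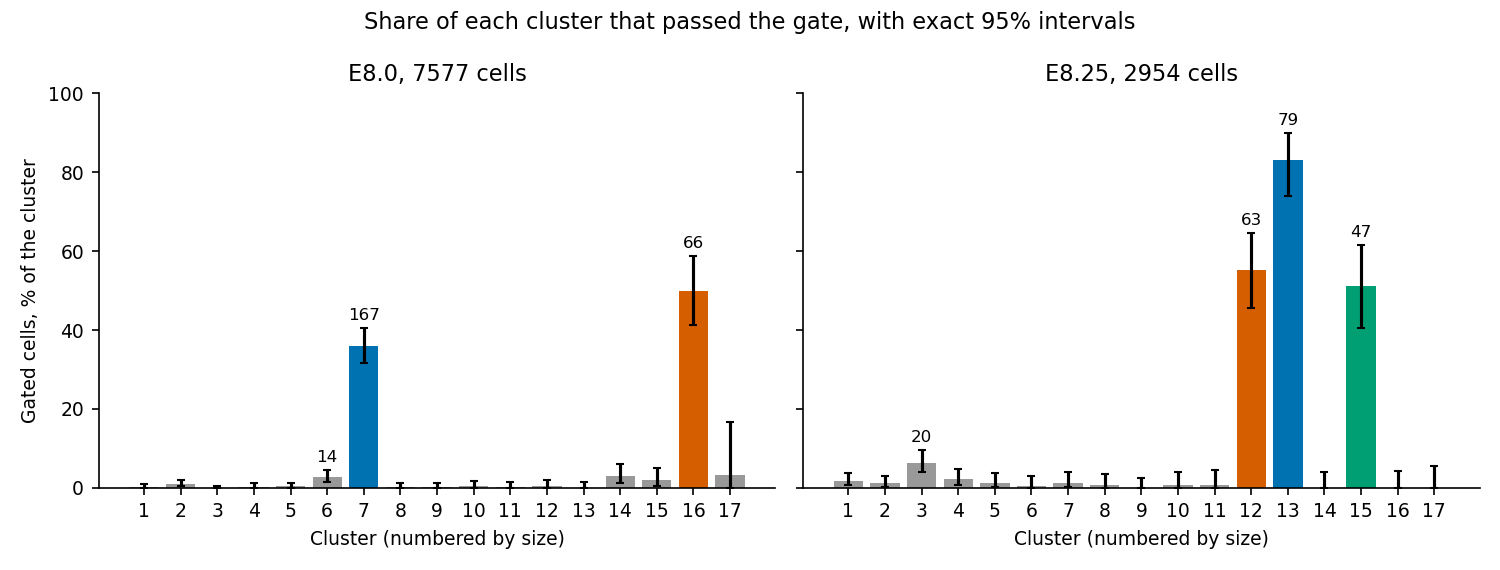
Share of each cluster that passed the gate (vertical, % of the cells of the cluster, bars from 0) for the clusters of each library numbered by size, with exact 95% intervals. Cluster 16 at E8.0 reaches 50%, and cluster 13 at E8.25 reaches 83.2%.

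The members of these clusters had unlike profiles. In clusters 16 and 12, Sfrp5 stood at 186 CPM (162 to 211) and 63.2 CPM (53.0 to 74.8). In clusters 7 and 13 it stood at 10.3 CPM (7.19 to 14.2) and 1.76 CPM (0.57 to 4.12), and in cluster 15 at 13.3 CPM. Tbx5 stood at 38.4 and 31.4 CPM in clusters 16 and 12 and at 6.85, 9.17 and 3.03 CPM in clusters 7, 13 and 15. Gata4, a zinc-finger partner of Tbx5, stood at 79.2 and 42.2 CPM against 14, 9.53 and 22.4 CPM. Twist1, a mesenchymal basic helix-loop-helix factor that pairs with Hand proteins, stood at 226 and 174 CPM against 59.6, 86.4 and 22.4 CPM, and the BMP target Id1 at 228 and 295 CPM against 49.4, 85.0 and 125 CPM. Smaller groups of members carried much Sfrp5 as well. The 14 members in cluster 6 at E8.0 had 320 CPM (264 to 385), more than those of cluster 16, and the 20 members in cluster 3 at E8.25 had 60.8 CPM (44.1 to 81.6). The median Hand1 count was 2 UMIs in the members of cluster 6, against 7 in those of cluster 16. Where such a cell had 1 Hand1 UMI, free RNA and expression cannot be told apart. Of the 390 Sfrp5 UMIs in members at E8.0, clusters 16 and 6 held 59.5% and 29.0%, and of the 212 at E8.25, clusters 12 and 3 held 63.7% and 20.8%.

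Members of clusters 7, 13 and 15 had more Krt8, Pmp22, Hoxb6 and Postn, genes picked after their values were seen. Postn had no UMI in the 66 members of cluster 16, which allows up to 2.95 CPM, and stood at 11.7 CPM in cluster 12, 54.8 CPM in cluster 7, 262 CPM in cluster 13 and 60.0 CPM in cluster 15. Krt8 stood at 671 and 660.0 CPM in clusters 16 and 12, and at 1940 (1894 to 1987), 2317 and 1334 CPM in clusters 7, 13 and 15. Fn1, of the same matrix list as Postn, was not divided in this way, at 248 and 288 CPM in clusters 16 and 12 against 263, 211 and 316 CPM. Pmp22 stood at 697 and 749 CPM against 1436, 2327 and 986 CPM. Hoxb6 stood at 16.8 and 18.7 CPM against 159, 210.3 and 90.8 CPM. Hand1 itself was higher there, at 1064 and 902 CPM in clusters 7 and 13 against 523 and 406 CPM in clusters 16 and 12, whereas Mab21l2 was lower in cluster 13, at 100.2 CPM, and in cluster 7 (interval 94.5 to 116 CPM) than in clusters 16 and 12, at 238 and 178 CPM.

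Some genes did not follow this division. Msx2 stood at 213 and 260 CPM in clusters 16 and 12, at 119 and 186 CPM in clusters 7 and 13, and at 29.7 CPM in cluster 15. Wnt2 stood at 282 and 204 CPM, at 91.9 and 161 CPM, and at 33.3 CPM in the same order. Cluster 15 had the most Foxf1, at 199 CPM, against 123 CPM in cluster 7 and 58.6 CPM in cluster 13. Wnt6 and Upk3b were highest in cluster 13, at 124 and 50.1 CPM, against at most 29.7 and 18.8 CPM in the other 4 clusters. Hba-x, an embryonic haemoglobin, stood at 47.2 and 44.8 CPM in clusters 16 and 7 and at 1643, 864 and 870 CPM in clusters 12, 13 and 15, so it was alike in the main clusters of E8.0.

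**Figure D4:**
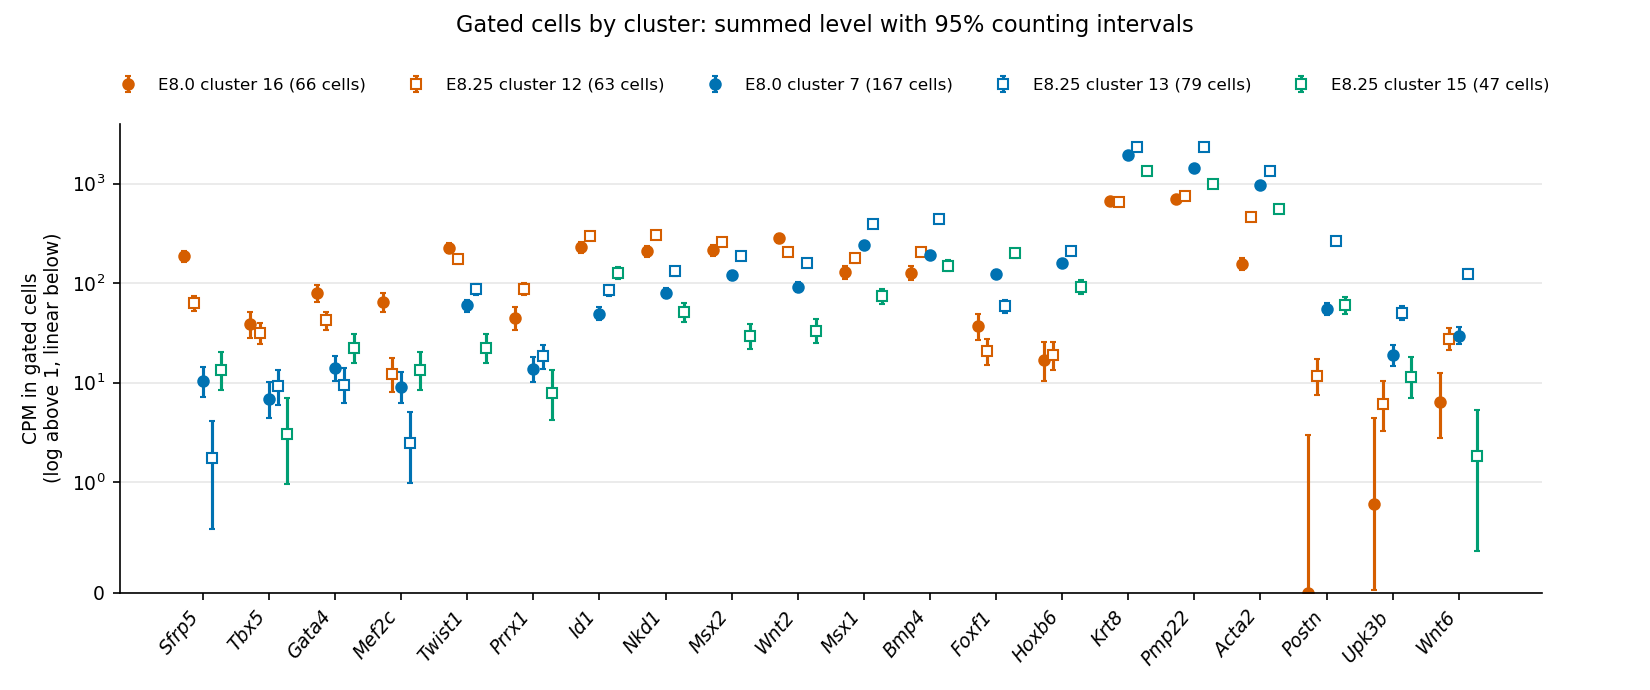
Summed level of named genes in gated cells (vertical, CPM, logarithmic above 1 and linear below) for clusters 7 and 16 at E8.0 and clusters 12, 13 and 15 at E8.25, with exact 95% counting intervals. Among these 5 clusters, Sfrp5 and Tbx5 are highest in clusters 16 and 12, and Postn, Krt8 and Hoxb6 are highest in clusters 7, 13 and 15.

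Single cells showed the same division in clusters 16, 12, 7 and 13, and less so in clusters 15 and 3 at E8.25. Sfrp5 and Postn, a pair chosen after their values were seen, were detected together in 4 of 281 members at E8.0, where 77 members had Sfrp5 alone and 75 had Postn alone. At E8.25 they were together in 16 of 234 members, with 41 and 101 alone. At a fixed depth of 10000 UMIs, the joint counts were 1 of 251 and 4 of 232. Sfrp5 and Wnt2, in contrast, met in 76 of the 81 members with Sfrp5 at E8.0 and 52 of 57 at E8.25, and Sfrp5 and Tbx5 in 35 and 28. Postn and Upk3b met in 27 members at E8.0 and 62 at E8.25. By cluster, Sfrp5 had a UMI in 42 of 66 members of cluster 16, 13 of 14 of cluster 6 and 28 of 63 of cluster 12, but in 19 of 167 of cluster 7 and 5 of 79 of cluster 13. Postn had one in 78 of 167 and 76 of 79 members of clusters 7 and 13, and in 0 of 66 and 8 of 63 of clusters 16 and 12. In cluster 15, Sfrp5 had a UMI in 12 of 47 members and Postn in 22. In cluster 3 at E8.25, Sfrp5 had one in 10 of 20 members and Postn in 8. Detection of both in sparse counts depends on level as well as on presence, so these counts are no measure of exclusion.

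Between the stages, with 1 library each, the members' levels were compared as ratios with counting intervals and no test. Of 7454 genes with 20 or more UMIs over both libraries and 10 CPM or more in 1 of them, 1.476% were at least 2-fold higher at E8.25 and 1.328% at least 2-fold higher at E8.0. The largest ratios were shared by other cells of the libraries. Hbb-y, an embryonic beta globin, went from 6.28 to 769 CPM in members, a log2 ratio of 6.94 (6.48 to 7.44), beside 5.78 in Hand1-only and 5.09 in neither cells. Hba-x, Hba-a1 and Alas2 were also among the 10 largest. Processed pseudogenes and predicted genes made up 3 of the 10 largest ratios in that direction (Gm29666, Gm3839 and Rps2-ps6) and 8 of the 10 in the other, such as Rpl7a-ps3 at -5.43 in members and -4.96 in neither cells. Reads of such genes can be shared with their parent genes.

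Outside the blood list, the listed genes past 2-fold were Cdx2, Tbx20, Mef2c, Myl7 (a gate gene), Sfrp5, Has2, Smad7 and Acvr2a downward and Col3a1, Dkk2, Nr2f1, Postn and Wnt6 upward. Cdx2 had a log2 ratio of -2.54 (-3.25 to -1.88) in members, beside -3.49 in Hand1-only and -2.05 in neither cells. Tbx20 had a log2 ratio of -2.33 (-2.56 to -2.12), with -3.47 in Hand1-only and -2.59 in neither cells, so all 3 groups had a negative ratio. Mef2c had -1.95 in members, 0.04 in Hand1-only cells and -0.35 in neither cells. Sfrp5 had -1.39 in members and -2.29 in neither cells. Upward, Col3a1, a fibrillar collagen, had 2.19 in members, 1.87 in Hand1-only and 2.18 in neither cells. Dkk2 had 1.86 against 0.40 and 1.17, Nr2f1 1.72 against 2.46 and 1.29, Postn 1.71 against 0.73 and 3.11, and Wnt6 1.39 against 0.12 and 1.94. Pitx1, by contrast, was level in members at -0.06 and had -3.37 in neither cells. The proportions of the clusters among members also differed between the libraries, as given above, and their part in these ratios was not tested.

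**Figure D5:**
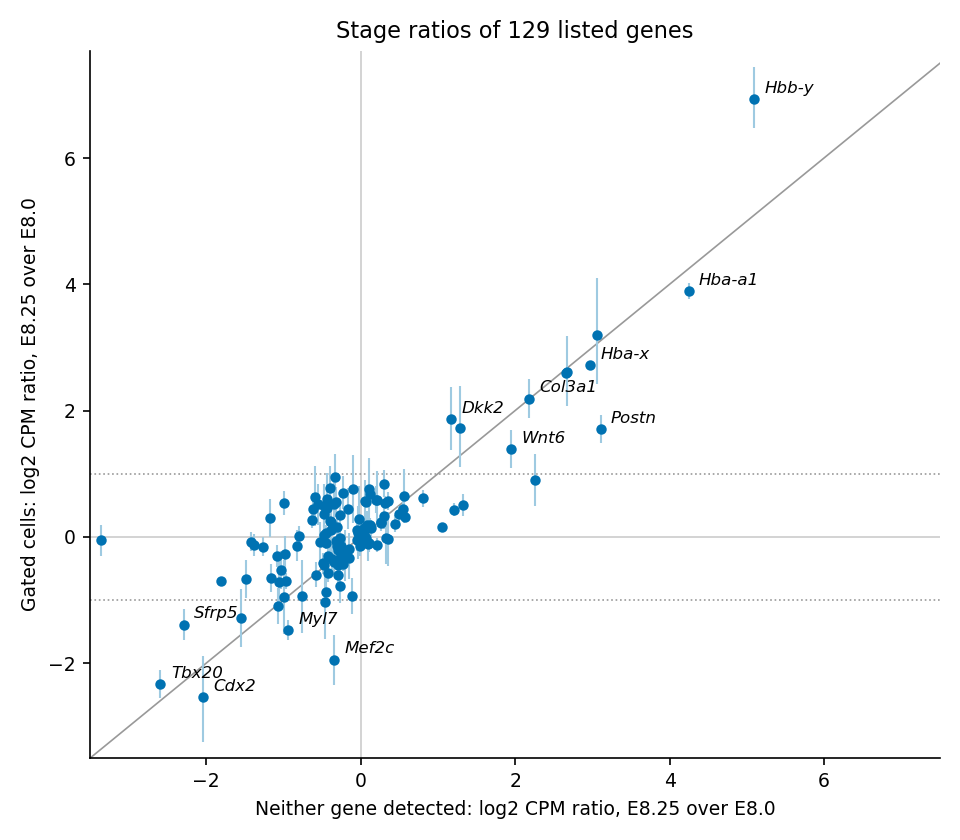
Log2 ratio of CPM, E8.25 over E8.0, in gated cells (vertical) against that in cells with neither gene (horizontal), for 129 listed genes, 1 point per gene. Haemoglobin genes are high on both axes, with Hbb-y at 6.94 and 5.09, whereas Mef2c is at -1.95 in gated cells and -0.35 in the others.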

How the data were processed

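The authors aligned the reads to mm10 with Cell Ranger 3.1.0 and deposited filtered matrices of raw UMI counts for 27998 genes, 1 matrix per library and without normalization. Barcodes of the libraries at E8.0 and E8.25 numbered 7581 and 2956, of which the gene and mitochondrial filters removed 4 and 2. The members and gene lists were chosen with earlier results of these data known. Counts were summed per library and gate group into 10 columns and tested with edgeR 4.0.16 (R 4.3.3; TMM factors, filterByExpr, group and library terms, 4 residual degrees of freedom). On simulated counts the test called 51 of 100 genes changed 2-fold, 100 of 100 changed 4-fold and 7 of 11708 unchanged genes. The simulation used a fixed dispersion, and no group changed between its libraries in a way of its own. In the data groups can change so, and these counts do not give the error rate of the comparisons above. No doublets were removed. Scrublet's own threshold marked 1.58% of cells at E8.0 and 0.169% at E8.25, and its highest scores at a fixed rate held 15 of 281 and 6 of 234 members. Leiden clusters (scanpy 1.11.5, igraph 0.11.9, resolution 1) used 2000 variable genes, 50 components and 15 neighbours. Genes were named when listed, or by size: the 10 largest calls in each direction at 50 CPM or more, with the same sign in both libraries, and between stages the 10 largest ratios in each direction at 20 CPM or more. A few genes that these rules select are not reported here. Pairs of genes within cells and individual genes by cluster were chosen after their values were seen.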

Additional observations from a re-analysis of the deposited data

Results flagged for a closer look

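The libraries at E9.5 and E10.5, which the comparisons above do not use, also held cells that passed the same gate. They were 303 of 4052 retained cells at E9.5 (7.48%) and 160 of 8042 at E10.5 (1.99%). In haemoglobin-rich cells, which should lack both genes, the gate admitted 1.52% at E8.0 and 1.85% at E8.25. That background was not read at E9.5 or E10.5. Their median Hand1 count was 3 and 2 UMIs, against 15 and 17.5 in the members described above. At these stages the dissected tissue was the pharyngeal apparatus and heart rather than the upper body. Whether they are the same kind of cell was not tested.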

How the results depend on the processing

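No paired analysis was possible by replicate number because each stage has 1 library and their only number, 1, pairs no samples, but the comparisons of cell groups were blocked by library. Without the library block, calls fell from 2950 to 458 against Hand1-only, from 2492 to 863 against Mab21l2-only, from 2535 to 711 against cardiomyocyte-gate and from 4080 to 1195 against neither cells, and the share of calls higher in members went from 56.7% to 84.7%, from 55.5% to 69.2%, from 47.3% to 33.8% and from 52.3% to 71.7%. At 10000 UMIs per cell, 1086 genes were called against Hand1-only and 973 against Mab21l2-only cells, and 482 genes passed 2-fold between stages in place of 209. The members' share at E8.0 became 2.06% with 2 UMIs of each gate gene, 2.63% when thinned and 4.42% without the sarcomere condition, and at E8.25 5.35% and 5.12% under the first 2. At resolution 0.5 the top pair of clusters held 91.1% of members at E8.0 (82.9% as reported) and 67.9% at E8.25 (60.7%). Of 462 named calls, 438 stayed called in the same direction with DESeq2 1.42.0, 460 without the filter on low counts, 449 with total UMIs as library sizes, 455 without doublets, 436 without haemoglobin-rich cells (an alternative chosen after seeing the data), 222 without the block and 371 of 443 when thinned. Leaving out E8.0 or E8.25, which gives ratios with no test, moved 127 and 135 of the 462 by more than the spread between the libraries. That spread came from the same 2 ratios, so a fitted value midway between them cannot count as moved. These counts therefore do not measure how far a call depends on 1 library. With Hand1-only cells held to 3 or more Hand1 UMIs, an alternative also chosen after seeing the data, 698 genes were called in place of 2950, on fewer cells, and 50 of 119 named calls against that group stayed. Reversed there were Tbx1 (1.47), Eya1 (1.14), Ebf1 (1.502), Fst (0.87), Grem1 (0.95), Frzb (0.42), Tnni3 (0.40), Meox2 (0.30), Foxc2 (0.17), Pax1 (0.37), Foxd1 (0.018), Fam212a (0.19), Esam (0.26), Tal1 (0.45), Bambi (-0.013) and the blood genes Hba-x (1.10), Hbb-bh1 (1.20), Hbb-y (0.51), Hba-a1 (1.134), Hba-a2 (1.31), Gata1 (1.04) and Alas2 (0.59). Other reversals were few. Against cardiomyocyte-gate cells, Hba-x became -0.20 (2 UMIs of each) and -0.47 (thinned), Fst -0.037 and -0.023, Hbb-bh1 -0.0647 and Hba-a1 -0.33 (thinned), Ebf1 -0.55 and Fam212a -0.068 (2 UMIs of each), and Has2 went from -1.66 to 0.087 as either library was left out, which gives ratios with no test. Against Mab21l2-only cells, Hba-a1 became 0.29 and Gata1 0.13 without haemoglobin-rich cells. The cause was not tested.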
